A study of Mus musculus with 32 samples.

Results

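Translation initiation and elongation factors were followed in ribosome-bound RNA of spinal cord astrocytes and in RNA of the whole lumbar cord. The set holds the protein-coding mouse genes whose symbol starts with Eif or Eef, without pseudogenes, without genes on chromosomes X and Y, and with a mean of at least 1 CPM, read counts scaled to library size, over all libraries. Of 80 genes with such a symbol, 63 met the rule, out of 55938 genes in the deposited table. The others were 11 genes that do not code for protein, 3 genes on X or Y (Eif1ax, Eif2s3x and Eif2s3y), and 3 genes under 1 CPM, among them the eIF4E-binding protein gene Eif4ebp3. All 63 passed the filter on low counts in every fit.

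All mice carried Aldh1l1-CreER, a tamoxifen-inducible recombinase expressed in astrocytes, and Rpl22-HA, which puts an HA tag on a ribosomal protein after recombination. The labels spell the driver Aldhl1l-CreER and the design text Aldh1l1-CreER. Trap libraries hold RNA pulled down with the tagged ribosomes from homogenised lumbar cord, and Input libraries hold the homogenate's RNA from all cell types, astrocytes included. Tissue was taken 3, 5 or 7 weeks after a fracture, which models complex regional pain syndrome in mice, or from uninjured mice. There were 3 Trap libraries and 1 Input library for each sex and state, which makes 24 Trap and 8 Input libraries. Nothing in the labels ties each library to its own animal, and the p-values therefore rest on a spread between libraries that may be technical. In such bulk RNA, fewer cells of a type and less RNA per cell cannot be told apart.

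Initiation factors bring the initiator tRNA, the small ribosomal subunit and the mRNA cap together and find the start codon. Elongation factors then deliver each aminoacyl-tRNA and move the ribosome along the message. Cells tune both steps through kinases that phosphorylate eIF2 alpha or eEF2 and through proteins that sequester eIF4E, and several factors exist as paralogues used in different tissues; eEF1A2, which replaces eEF1A1 in mature neurons and muscle, is the best known of these.

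Library totals were 17124092 to 23189285 counts in Trap and 17981205 to 22907969 counts in Input. The 10 astrocyte markers summed to 43120 to 55744 CPM in Trap libraries, against 4994 to 5600 CPM in Input libraries, and all 10 were called higher in Trap. The 10 neuron markers summed to 351 to 1050 CPM in Trap, against 7928 to 8748 CPM in Input, so neuronal RNA was low in Trap but not absent. The 4 blood markers were all called higher in Trap and summed to 357 to 2464 CPM in Trap and 185 to 310 CPM in Input. The 4 fibroblast markers summed to 158 to 325 CPM in Trap and 29.9 to 37.1 CPM in Input, with 2 called higher and 2 lower. 2 Trap libraries stood apart: female 3 weeks replicate 3 had the highest neuron marker sum and a mitochondrial share of counts of 0.489%, and male 7 weeks replicate 2 had a median over 77 ribosomal protein genes 0.91 (log2) above the uninjured Trap mean. Most columns of the table carry a prefix with the replicate number and a sex letter, whose meaning the sources used here do not give. All Input libraries bear the number 1, and among columns of that number the male ones have the prefix and the female ones have none, so that there sex and anything the prefix marks cannot be told apart.

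Start-site windows are shown for both eEF1A paralogues and for Eif5a2, whose levels relative to each other or to Eif5a differed between Trap and Input, and for 2 members with a run of C and T within 30 bases of the start. RefSeq promoter entries (GRCm38.p6) matched 50 of the 63 members, and these 5 genes were chosen after their values were seen. The first 3 windows run from 100 bases before to 20 bases after the annotated start, and capitals mark GGGCGG or CCGCCC, the GC box read on either strand.
Eef1a2 (chr2:181156996-181157115, minus strand): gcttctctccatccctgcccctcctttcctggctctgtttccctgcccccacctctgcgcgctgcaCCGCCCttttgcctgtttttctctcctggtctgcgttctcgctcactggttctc
Eef1a1 (chr9:78481705-78481824, minus strand): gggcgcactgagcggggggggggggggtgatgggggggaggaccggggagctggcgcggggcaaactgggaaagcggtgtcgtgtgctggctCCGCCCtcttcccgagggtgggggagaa
Eif5a2 (chr3:28781177-28781296, plus strand): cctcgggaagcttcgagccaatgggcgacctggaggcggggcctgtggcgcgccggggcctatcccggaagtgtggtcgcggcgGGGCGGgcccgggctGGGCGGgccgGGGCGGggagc
Over the full 300 bases of each entry, a GC box was found in 36 of the 50 matched members (72%), against 35.9% of 27025 promoters. The letters TATAAA, searched on the gene's strand, were found in 4 members (8%), against 8.88% of all promoters.

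In the next pair, 30 bases on either side of the start are given, and capitals mark a run of at least 8 letters that are all C or T on the gene's strand, within 30 bases of the start. A run of this kind directly at the cap is the mark of the mRNAs known as TOP mRNAs, which code for ribosomal proteins and for some elongation factors, eEF2 among them.
Eef2 (chr10:81176601-81176660, plus strand): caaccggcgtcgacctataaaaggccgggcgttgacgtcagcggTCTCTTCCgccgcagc
Eif3f (chr7:108934385-108934444, plus strand): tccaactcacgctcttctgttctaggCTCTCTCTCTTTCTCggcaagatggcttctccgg
The run spans the annotated start in Eif3f and lies downstream of it in Eef2. Runs of 10 letters in Eef1a1 and 12 letters in Eef1a2 also lay near the annotated start. They are not marked as runs in the windows above. Such a run lay near the annotated start in 19 of the 50 matched members (38%), against 27.2% of all promoters. RefSeq starts are annotated and were not measured here, and a match describes letters only.

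The first comparison asked which factors were enriched or depleted on astrocyte ribosomes relative to the whole cord. After TMM scaling most members were higher in Trap, most of all Eef1akmt4, Eif2ak2, Eif4ebp1 and Eef2k, while Eef1a2, Eif5a2, Eif4e3 and Eif1a were lower by over 2-fold. At an adjusted p under 0.05 (edgeR's quasi-likelihood test, Benjamini-Hochberg over 17101 genes), 40 of 63 members were higher in Trap and 15 were lower. The background is high: 43.3% of all genes tested were called higher and 44.3% lower, 87.6% in all. The members' median log2 fold change was 0.29, against -0.01 over all genes. With DESeq2's size factors the median over all genes moved to -0.14, and 34 members were called higher and 20 lower. Without overlap between the 24 Trap and 8 Input libraries, 23 members (36.5%) lay above every Input library and 10 (15.9%) below, against 26.3% and 27.2% of all genes. Over 2-fold calls numbered 12 higher and 4 lower among members, while 50.5% of all genes were called with a change of that size in either direction.

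**Figure D1:**
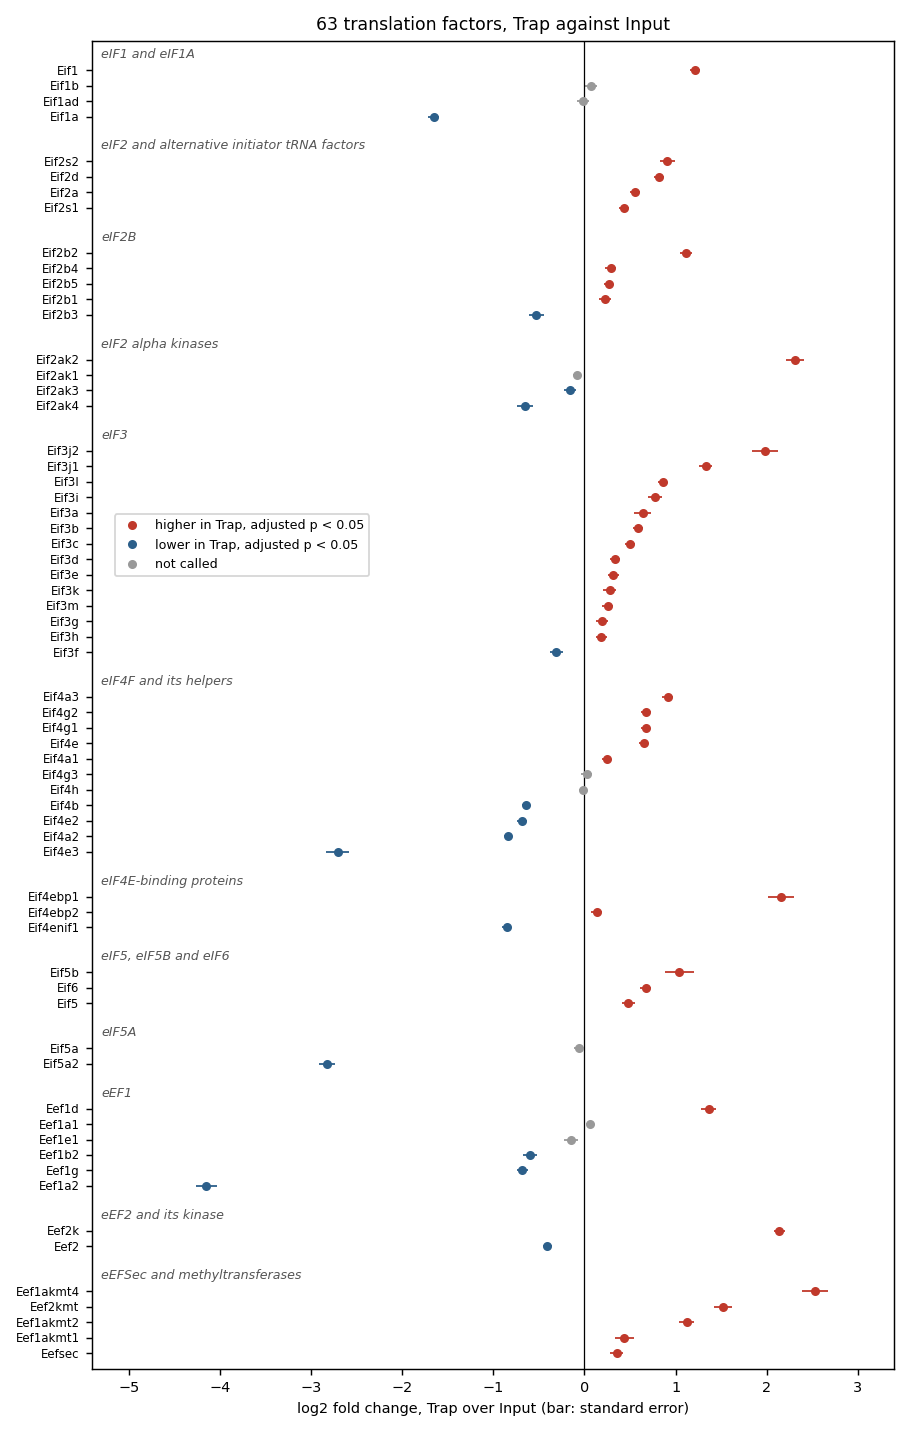
Log2 fold change of each of the 63 members, Trap over Input, with the standard error of the fit as a bar; red dots were called higher in Trap, blue dots lower, grey dots neither, and genes are grouped by role. The eIF3 subunits sit to the right of 0 apart from Eif3f, and Eef1a2 lies farthest to the left at -4.15.

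The members lower in Trap by over 2-fold were Eef1a2, Eif5a2, Eif4e3 and Eif1a. Eef1a2 codes for the eEF1A paralogue of neurons and muscle (ENSMUSG00000016349.10, chromosome 2, 181147653 to 181157014, minus strand, GRCm38). It had 36.5, 55.3 and 105.9 CPM in Trap libraries (lowest, median, highest), against 873, 1001 and 1170 CPM in Input libraries. No Trap library came near the lowest Input library, and the highest Trap value belonged to female 3 weeks replicate 3. The log2 fold change was -4.15 ± 0.118 (standard error, adjusted p = 1.53e-22, edgeR).

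Eef1a1, the widely expressed eEF1A paralogue (ENSMUSG00000037742.14, chromosome 9, 78478449 to 78489151, minus strand), had 1117, 1257 and 1668 CPM in Trap libraries, against 1155, 1202 and 1345 CPM in Input libraries. The groups overlapped over most of their range, and the fold change was not called (0.06 ± 0.045, adjusted p = 0.216, edgeR). Per kilobase of exon, Eef1a1 averaged 513 ± 42.7 CPM in Trap (SD, n = 24), and Eef1a2 27.6 ± 7.05 CPM. In Input the same levels were 492 CPM per kilobase for Eef1a1 and 487 CPM per kilobase for Eef1a2, so that the pair stood level in whole cord and far apart on astrocyte ribosomes.

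**Figure D2:**
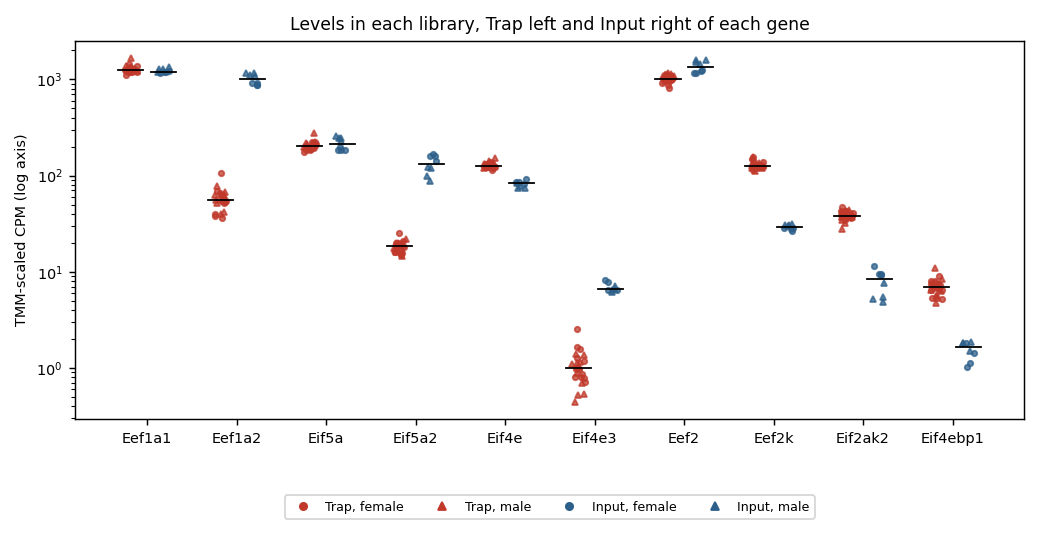
TMM-scaled CPM of 10 members in every library on a log axis, Trap (red) left and Input (blue) right of each gene name, circles for females, triangles for males, black lines for medians. Eef1a1 and Eif5a overlap between Trap and Input, while Eef1a2, Eif5a2 and Eif4e3 lie below and Eef2k, Eif2ak2 and Eif4ebp1 above every Input library.

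Eif5a2 codes for the second eIF5A, a factor that helps ribosomes through difficult peptide bonds such as those between prolines (ENSMUSG00000050192.8, chromosome 3, 28781276 to 28798846, plus strand). It had 14.6, 18.5 and 25.5 CPM in Trap libraries, against 86.9, 131 and 170 CPM in Input libraries. All Trap libraries lay below all Input libraries (log2 fold change -2.83 ± 0.086, adjusted p = 2.55e-24, edgeR). Eif5a, the common form, had 178, 204 and 276 CPM in Trap libraries and 183, 213 and 258 CPM in Input libraries. Its groups overlapped and its fold change of -0.06 ± 0.054 was not called, though it was called lower with DESeq2's size factors (-0.19) and with male libraries alone (-0.25, adjusted p = 0.00532, edgeR).

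Eif4e3, a relative of the cap-binding protein eIF4E, had 0.446, 1.00 and 2.57 CPM in Trap libraries, against 6.15, 6.57 and 8.23 CPM in Input libraries (log2 fold change -2.71 ± 0.128, adjusted p = 9.13e-20, edgeR). It was the least abundant member in Trap per kilobase, at 0.422 ± 0.179 CPM (SD, n = 24). Eif1a, which scans for the start codon together with eIF1, had 10.5, 12.3 and 15.6 CPM in Trap libraries, against 33.2, 37.6 and 46.5 CPM in Input libraries (-1.65 ± 0.060). Neither gene overlapped between Trap and Input. The X-linked Eif1ax, left out by the rule, had a mean of 165 CPM over all libraries, against 21.3 CPM for Eif1a. Eif1ax was not compared here, so these values describe Eif1a alone.

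The neuron markers were low in the same libraries as Eef1a2. Their summed median in Trap was 6.82% of that in Input, and the median of Eef1a2 was 5.53% of its Input median, against 14.1% for Eif5a2, 15.3% for Eif4e3 and 32.7% for Eif1a. Oligodendrocyte markers stood at 23.2%, microglial markers at 22.2% and endothelial markers at 11% of Input. Over the 24 Trap libraries, the log2 level of Eef1a2 followed the log2 sum of the neuron markers with Pearson's r = 0.95 (p = 1e-05, the smallest that 100000 permutations can give; adjusted p = 4e-05 over 4 members) and Spearman's rho = 0.92. Without the 2 libraries farthest from the median, both from females at 3 weeks, r was 0.92, and it was 0.96 within females and 0.92 within males. Both measures share a library's scaling.

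For Eif5a2 the relation was weaker (r = 0.47, permutation p = 0.0198, adjusted p = 0.0396; rho = 0.41, adjusted p = 0.0973) and rested on those 2 libraries, since r was 0.14 without them; it was 0.81 within females and -0.35 within males. For Eif4e3 r was 0.14 (rho = 0.28) and for Eif1a 0.05 (rho = 0.01), with permutation p = 0.525 and 0.802, and without the same 2 libraries r was 0.19 and -0.03. The part of other cell types' RNA in the Trap levels of these members was not tested.

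**Figure D3:**
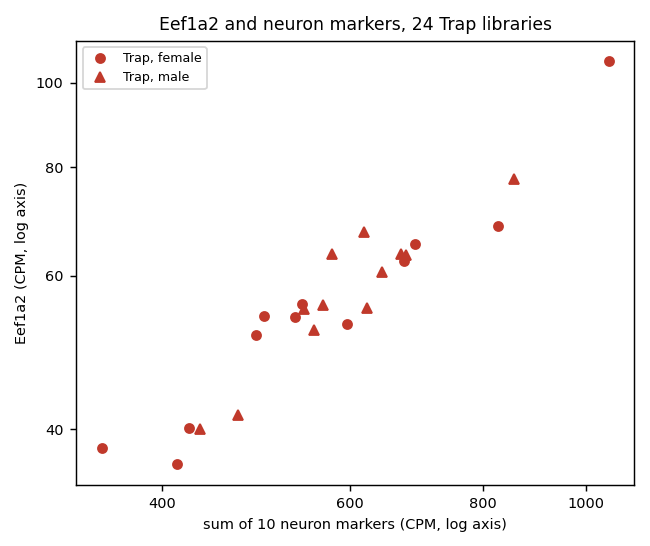
Eef1a2 level against the sum of 10 neuron markers in the 24 Trap libraries, both in CPM on log axes, circles for females and triangles for males. Points rise together, from 351 CPM of markers at the left to the library with 1050 CPM of markers and 105.9 CPM of Eef1a2 at the upper right.

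Among factors of the initiator tRNA and the start codon, Eif1, which guards start codon choice, was called higher in Trap (1.21 ± 0.059), and its near relative Eif1b was not called (0.07 ± 0.066). All 4 genes grouped as eIF2 and alternative initiator tRNA factors were higher, Eif2a and Eif2d among them. Of the eIF2 subunits, Eif2s2, the beta subunit, was higher by 0.91 ± 0.080. Eif2s1, the alpha subunit that stress kinases phosphorylate, was higher by 0.43 ± 0.058. The rule on chromosomes left out Eif2s3x and Eif2s3y, so eIF2 is not covered whole. Eif2s1 had 33.6, 37.0 and 49.4 CPM in Trap libraries and 23.4, 28.2 and 32.6 CPM in Input libraries, with no overlap. Of the 5 subunits of eIF2B, the exchange factor that reloads eIF2 with GTP, 4 were higher, most of all Eif2b2 (1.11 ± 0.067), and Eif2b3 was lower (-0.53 ± 0.082). With male libraries alone, Eif2b1 (0.11, adjusted p = 0.28, edgeR), Eif2b4 (0.11, adjusted p = 0.20) and Eif2b5 (0.08, adjusted p = 0.20) were not called.

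The eIF2 alpha kinases, which slow initiation under stress, split. Eif2ak2, the kinase PKR that senses double-stranded RNA (ENSMUSG00000024079.4, chromosome 17, 78852564 to 78882573, minus strand), had 27.9, 37.7 and 46.6 CPM in Trap libraries, against 4.89, 8.45 and 11.4 CPM in Input libraries. All Trap libraries lay above all Input libraries (2.31 ± 0.099, adjusted p = 4.55e-21, edgeR). Eif2ak4, the amino acid sensor GCN2, was lower in Trap (-0.65 ± 0.084), with 5.00, 8.91 and 10.6 CPM in Trap libraries and 12.3, 13.7 and 15.2 CPM in Input libraries, without overlap. Eif2ak3, the endoplasmic reticulum kinase PERK, was lower by a small margin (-0.16 ± 0.063, adjusted p = 0.0189, edgeR), a call that was lost without the male 7 weeks Input library (-0.13, adjusted p = 0.072) and with female libraries alone (-0.11, adjusted p = 0.138). Eif2ak1, the haem-regulated kinase, was not called (-0.08 ± 0.044, adjusted p = 0.08); it was called lower with DESeq2's size factors (-0.22), with male libraries alone (-0.16, adjusted p = 0.00894) and without the 2 libraries that stand apart (-0.09, adjusted p = 0.0339).

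Of the 14 genes of eIF3, the scaffold that holds the small subunit and the mRNA factors together, 13 were higher in Trap and Eif3f was lower, with a list median of 0.42. Eif3j2 and Eif3j1, near-identical genes of the loosely bound j subunit, led at 1.98 ± 0.143 and 1.33 ± 0.073, and the division of reads between them is uncertain. Eif3l (0.86 ± 0.050), Eif3i (0.77 ± 0.073), Eif3a (0.64 ± 0.094) and Eif3b (0.58 ± 0.054) followed, while Eif3h and Eif3g rose by only 0.19 ± 0.056 and 0.19 ± 0.067. With male libraries alone, Eif3h (0.043, adjusted p = 0.648, edgeR), Eif3g (0.012, adjusted p = 0.904) and Eif3k (0.14, adjusted p = 0.24) were not called. Eif3f had 51.2, 67.1 and 105.6 CPM in Trap libraries, against 67.3, 85.8 and 103.0 CPM in Input libraries. Those ranges overlap, and the fold change was -0.31 ± 0.071 (adjusted p = 0.000194, edgeR).

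The eIF4F group holds the cap-binding protein, its scaffold and its helicase, and 5 of 11 measured members were higher and 4 lower. The cap-binding Eif4e (0.65 ± 0.049), the scaffold Eif4g1 (0.67 ± 0.054), its relative Eif4g2 (0.67 ± 0.056) and the helicase Eif4a1 (0.24 ± 0.046) were higher. Eif4a3, a relative of Eif4a1 and a core protein of the exon junction complex, was higher too (0.91 ± 0.063). The second helicase Eif4a2 (-0.84 ± 0.037), the cap-binding repressor Eif4e2 (-0.68 ± 0.055), the helicase cofactor Eif4b (-0.64 ± 0.041) and Eif4e3 were lower. Eif4a2 had 314, 342 and 384 CPM in Trap libraries, against 581, 614 and 653 CPM in Input libraries, with a wide gap between the groups. The scaffold Eif4g3 was not called (0.02 ± 0.061) over both sexes, but was called higher with male libraries alone (0.17, adjusted p = 0.014, edgeR) and stood at -0.17 with female ones (adjusted p = 0.0558). The call of Eif4a1 was lost with male libraries alone (0.12, adjusted p = 0.0963, edgeR).

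Eif4ebp1, which sequesters eIF4E until mTORC1 phosphorylates it (ENSMUSG00000031490.6, chromosome 8, 27260329 to 27276674, plus strand), had 4.70, 6.93 and 11.04 CPM in Trap libraries, against 1.02, 1.66 and 1.89 CPM in Input libraries. Every Trap library lay above every Input library (2.16 ± 0.142, adjusted p = 8.6e-16, edgeR). Eif4ebp2 was far more abundant, at 12.1 ± 1.19 CPM per kilobase in Trap (SD, n = 24), against 3.17 ± 0.635 for Eif4ebp1. It had 52.4, 70.2 and 84.2 CPM in Trap libraries and 58.6, 63.02 and 71.8 CPM in Input libraries, and its call (0.13 ± 0.057, adjusted p = 0.0307, edgeR) ended with DESeq2's size factors (-0.00049), with male libraries alone (0.018), without the filter on low counts (0.13, adjusted p = 0.0576) and without any one of the 4 female Input libraries (0.11 to 0.13). Eif4enif1, which carries eIF4E into the nucleus and to processing bodies, was lower (-0.86 ± 0.051).

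All 3 late initiation factors were higher: Eif5b, which joins the subunits (1.04 ± 0.159), Eif6, which keeps free large subunits apart from small ones (0.67 ± 0.064), and Eif5, the activator of eIF2's GTPase (0.48 ± 0.068). Eif6 had 49.9, 63.2 and 93.6 CPM in Trap libraries, against 33.3, 40.4 and 47.7 CPM in Input libraries, without overlap.

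Among the elongation factors, the eEF1B exchange subunits, which reload eEF1A, moved apart. Eef1d was higher in Trap (1.36 ± 0.083), with 144, 180 and 305 CPM in Trap libraries and 60.7, 72.6 and 84.7 CPM in Input libraries, while Eef1g (-0.68 ± 0.057) and Eef1b2 (-0.60 ± 0.073) were lower. Eef1d shares exon with Naprt on the same strand and held values that are not whole in 21 libraries, so its reads are uncertain. Exons of Eef1b2 overlap Ndufs1 on the other strand, and the strandedness of the counting is not given in the sources used here. Exon overlap on the other strand was annotated for 19 members. Eif2a (with Serp1), Eif2d (Rassf5), Eif2b4 (Snx17) and Eef2kmt (Alg1) are among them, so the same caution holds for their values. Eef2, the translocase (ENSMUSG00000034994.10, chromosome 10, 81176631 to 81182498, plus strand), had 821, 1015 and 1160 CPM in Trap libraries, against 1161, 1340 and 1588 CPM in Input libraries. The highest Trap library lay just below the lowest Input library (-0.41 ± 0.051, adjusted p = 7.17e-09, edgeR).

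Eef2k, the kinase that phosphorylates and halts eEF2 (ENSMUSG00000035064.17, chromosome 7, 120842831 to 120907450, plus strand), went the other way. It had 111, 126 and 157 CPM in Trap libraries, against 26.5, 29.5 and 31.4 CPM in Input libraries (2.14 ± 0.061, adjusted p = 3.86e-26, edgeR), with no overlap. All 5 genes of selenocysteine delivery and factor methylation were higher, from Eefsec (0.35 ± 0.071) to Eef1akmt4 (2.53 ± 0.142), a lysine methyltransferase of eEF1A that had only 2.62, 3.63 and 4.82 CPM in Trap libraries and 0.335, 0.616 and 0.980 CPM in Input libraries. Exons of Eef1akmt4 overlap Alg3 on the other strand, so its reads are uncertain too. With male libraries alone, Eef1akmt1 (0.31, adjusted p = 0.058, edgeR) and Eefsec (0.21, adjusted p = 0.0527) were not called.

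Summed over the 63 members, the libraries held 8073 to 9886 CPM in Trap and 8275 to 9391 CPM in Input. Without Eef1a2 the sums were 8019 to 9809 CPM in Trap and 7394 to 8221 CPM in Input, and the ranges overlapped in both cases. Of the 77 cytosolic ribosomal protein genes, 11 were called higher and 52 lower, with a median of -0.35.

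Ratios of related factors within a library do not depend on how libraries are scaled. In 11 of 12 pairs the ratio differed between Trap and Input (exact 2-sided permutation within sex and state, adjusted over the 12 pairs), and in 10 pairs the Trap and Input ranges did not overlap. With 87.6% of single genes called between Trap and Input, nothing particular to these pairs is read from the counts. These pairs share genes with the comparison above and were chosen with its results known. Eef1a1, Eif4a1 and Eif2ak1 held values that are not whole in 32 libraries, Eif1 in 31 and Eif4e in 20. Uncertain reads therefore enter the ratios over these genes. Eef1a2 counts were 0.0267 to 0.0788 of Eef1a1 counts in Trap libraries, against 0.722 to 0.919 in Input libraries (log2 difference -4.23, exact permutation p = 0.000015, the smallest it can give, adjusted p = 0.000018). Eif5a2 counts were 0.0527 to 0.12 of Eif5a in Trap, against 0.336 to 0.911 in Input (-2.76, the same p). Eif4a2 exceeded Eif4a1 in both, by a ratio of 1.76 to 2.32 in Trap and 3.60 to 4.97 in Input (-1.08).

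The ratio of Eif4e3 to Eif4e (-3.42), of Eif4e2 to Eif4e (-1.33), of Eif1b to Eif1 (-1.15) and of Eif4g3 to Eif4g1 (-0.64) was lower in Trap with the same p. Higher in Trap were the ratios of Eif2ak2 to Eif2ak1 (2.43), of Eif4ebp1 to Eif4ebp2 (2.03) and of Eif4a3 to Eif4a1 (0.67). The ratio of Eif2ak4 to Eif2ak3 was lower (-0.49, exact permutation p = 0.000076, adjusted p = 0.000083) with overlapping ranges. Eif4g2 against Eif4g1 was the pair for which no difference was detected (0.01, exact permutation p = 0.879): the ratio was 1.95 to 2.56 in Trap and 1.72 to 2.79 in Input.

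**Figure D4:**
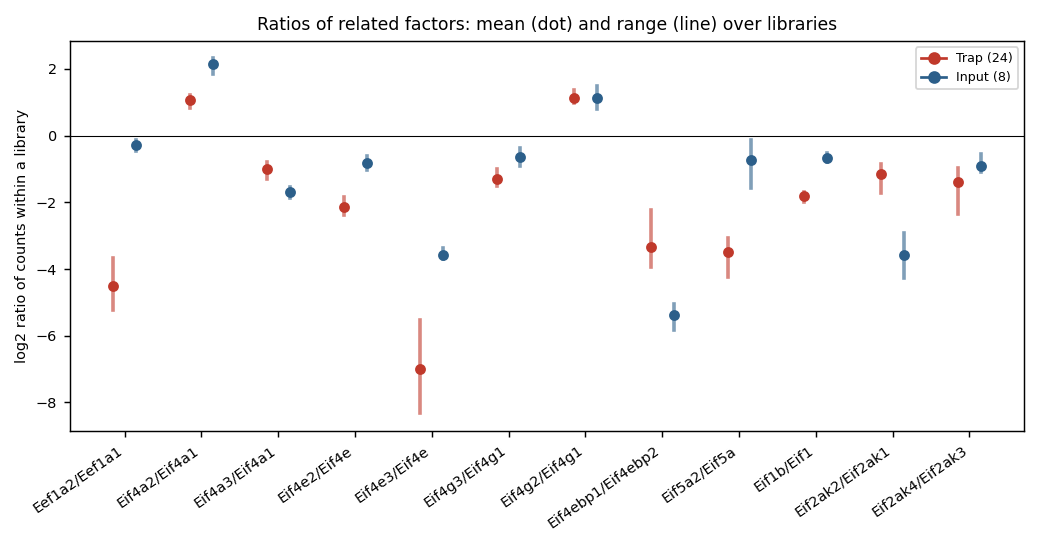
Log2 ratio of counts of 12 pairs of related factors, mean (dot) and range over libraries (line), 24 Trap libraries in red left of 8 Input libraries in blue. Ranges are apart in 10 pairs, widest for Eef1a2 over Eef1a1, and overlap for Eif4g2 over Eif4g1 and for Eif2ak4 over Eif2ak3.

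The same comparison was made within each sex. Between them, 57 of 63 members had the same sign, against 91.1% of 16138 genes tested in both sexes. There were 30 members called higher in both sexes and 14 lower in both, while 37.5% of all genes were higher and 37.9% lower in both. Eef1a2 was at -4.36 ± 0.103 in males and -3.99 ± 0.202 in females, Eef2k at 2.00 ± 0.076 in males and 2.22 ± 0.082 in females, and Eif4ebp1 at 1.90 ± 0.197 in males and 2.37 ± 0.185 in females. Eif4h, the other helicase cofactor, was called in opposite directions, as were 0.756% of all genes, at -0.20 in males and 0.11 in females. A test of the difference itself, added after seeing the data, called 13 members, beside 14.4% of all genes, with the lowest p for Eif3j1, Eif2s2, Eif5 and Eif3a. It also called Eif4g3 (male minus female difference 0.38, adjusted p = 0.0098) and Eif5a (-0.28, adjusted p = 0.0451).

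The Input libraries of the sexes themselves differed widely, and the part of this in the 13 was not tested. Between 4 male and 4 female Input libraries, in a comparison added after seeing the data, 25 members were higher and 14 lower in males (edgeR, with 22.9% of all genes higher and 23.3% lower, 46.2% in all). Eif3a, the largest eIF3 subunit, had 64.1, 72.0, 80.3 and 83.3 CPM in male Input libraries and 111, 121, 125 and 127 CPM in female ones, so the sexes did not overlap (-0.74 ± 0.051, adjusted p = 1.43e-08, edgeR). Eif5b had 19.7, 23.4, 29.5 and 31.5 CPM in male Input and 42.9, 46.8, 47.0 and 50.6 CPM in female Input (-0.91 ± 0.094). Eef1a2 was higher in male Input (0.30 ± 0.033). The mitochondrial share of counts was 4.03% to 4.91% in male and 5.93% to 6.14% in female Input libraries, and sex cannot be told apart from what the prefix of the male Input columns marks.

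Among the Trap libraries, where each sex has 12, no member was called between males and females (edgeR; 0.195% of 15380 genes were called). At an unadjusted p under 0.05 there were 8 members, against 9.8% of all genes, and 50 of the 63 fold changes were positive (median 0.07, against -0.01 over all genes). The lowest p belonged to Eif1 (0.18 ± 0.058, adjusted p = 0.29), Eif4g3 (0.15 ± 0.053) and Eif2s2 (0.15 ± 0.057) on the male side and to Eif2ak2 (-0.12 ± 0.058) on the female side.

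The next comparisons asked whether fracture changed these factors on astrocyte ribosomes. No member was called at 3, 5 or 7 weeks (edgeR, 6 against 6 Trap libraries, both sexes together), where 0.111%, 0% and 0% of all genes were called. No member's 6 libraries lay wholly above or below the 6 uninjured ones at any time. No share of all genes stands beside this, so nothing particular to the members is read from it. At an unadjusted p under 0.05 there were 3 members at 3 weeks (8.65% of all genes), 0 at 5 weeks (2.76%) and 0 at 7 weeks (2.85%); DESeq2's Wald test also called 0 members each time. The members' medians were 0.01, -0.03 and 0.01 at 3, 5 and 7 weeks, beside 0.00 over all genes at each.

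The precision was fair: the median standard error at 3 weeks was 0.084, and an interval of 2 standard errors around the estimate stayed within a 2-fold change for 62 members at 3 weeks, 63 at 5 weeks and 62 at 7 weeks. The exception at 3 and 7 weeks was Eif4e3, at -0.47 ± 0.323 and -0.39 ± 0.320.

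Eif3f had the lowest p at 3 weeks. Its levels were 66.3, 75.03 and 87.4 CPM in Trap at 3 weeks (lowest, median, highest), against 56.0, 65.0 and 68.9 CPM in uninjured Trap, with slight overlap (0.28 ± 0.111, adjusted p = 0.427, edgeR). At 5 weeks it had 60.7, 67.0 and 76.1 CPM and at 7 weeks 51.2, 66.2 and 105.6 CPM, where 1 library, male 7 weeks replicate 2, holds the top value. Eif1a had 11.2, 13.4 and 15.6 CPM at 3 weeks, against 10.5, 11.4 and 13.7 CPM uninjured (0.22 ± 0.091, adjusted p = 0.473). Eef1a1 had 1244, 1355 and 1428 CPM at 3 weeks, against 1117, 1227 and 1270 CPM uninjured (0.15 ± 0.064, adjusted p = 0.492). Both groups of 6 overlapped for each gene. The next were Eif3c (-0.15 ± 0.073), Eif4b (0.12 ± 0.060) and Eif3a (-0.17 ± 0.099).

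Ribosomal protein genes stood beside these small values: 75 of 77 had a positive fold change at 3 weeks, with a median of 0.20 and none called. No share of all genes stands beside that count, and genes of the same libraries are not independent. No effect of fracture is read from it. At 7 weeks the median was 0.17, and the library that stood apart in these genes was again male 7 weeks replicate 2. The factors' own panel stayed close to 0 at 3 weeks, with Eif4g1 at -0.12 ± 0.077, Eif4g2 at -0.10 ± 0.066, Eif4g3 at -0.12 ± 0.075 and Eif4a1 at 0.07 ± 0.065. Between 7 and 3 weeks no member was called either (0.0195% of all genes), and Eif4b alone had an unadjusted p under 0.05, beside 7.93% of all genes (-0.12 ± 0.060, adjusted p = 0.623). The 3 week effect differed between the sexes for no member (edgeR, 0% of all genes called; 0 members and 2.59% of all genes at an unadjusted p under 0.05).

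**Figure D5:**
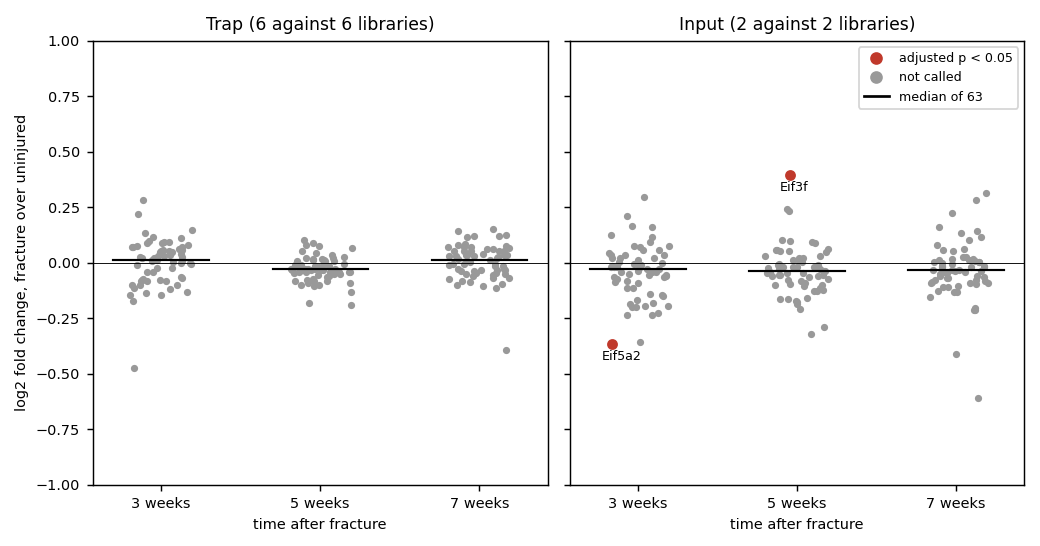
Log2 fold change of each member, fracture over uninjured, at 3, 5 and 7 weeks in Trap (left) and Input (right); red dots were called, grey dots were not, and black lines are medians of the 63 members. Trap values stay close to 0 with none called, and in Input the called members are Eif5a2 at 3 weeks and Eif3f at 5 weeks.

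In whole cord, with 1 Input library per sex and state, 1 member was called at 3 weeks, 1 at 5 weeks and 0 at 7 weeks (edgeR). Of all genes, 1.08% were called at 3 weeks (0.643% lower), 0.107% at 5 weeks (0.101% higher) and 0.214% at 7 weeks. At an unadjusted p under 0.05 there were 9 members at 3 weeks (13.9% of all genes), 6 at 5 weeks (8.5%) and 4 at 7 weeks (5.88%). Eif5a2 was lower at 3 weeks, with 86.9 CPM in the male and 140.9 CPM in the female fracture library, against 118.5 CPM in the male and 169.5 CPM in the female uninjured library (-0.37 ± 0.077, adjusted p = 0.0368, edgeR). It was lower within each sex, though the female fracture library lay above the male uninjured one. Eif3f was higher at 5 weeks, with 103.0 CPM in the male and 89.9 CPM in the female fracture library, against 79.7 CPM in the male and 67.3 CPM in the female uninjured library (0.40 ± 0.061, adjusted p = 0.0165, edgeR).

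Eif3f was also above uninjured at 3 weeks (0.21 ± 0.061, adjusted p = 0.123) and at 7 weeks (0.28 ± 0.062, adjusted p = 0.083), both short of a call and with the same uninjured libraries. The call of Eif5a2 was lost with DESeq2's size factors (-0.38, adjusted p = 0.0541), without either uninjured Input library (adjusted p = 0.24 for the female and 0.218 for the male one) and without the male 3 weeks library (adjusted p = 0.298). The call of Eif3f was lost without any one of the 4 libraries compared (adjusted p = 0.054 to 0.336). At 7 weeks the lowest p after Eif3f belonged to Eif4g2 (-0.13 ± 0.052, adjusted p = 0.743).

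Genes next to the factors in the same pathway were counted from lists chosen with earlier results known. Most were called one way or the other, as were 87.6% of all genes tested, so the counts that follow describe these genes and set no list apart. Of 7 termination and recycling genes, 5 were higher and 1 lower in Trap, with the release factor genes Gspt1 (0.81 ± 0.076) and Etf1 (0.74 ± 0.050) higher and Gtpbp2, a rescuer of stalled ribosomes, lower (-0.60 ± 0.063). Of 20 genes of mTORC1 and its regulators, 10 were higher and 8 lower. Sesn1 (1.49 ± 0.077) and Ddit4 (1.41 ± 0.075) were higher, and Rragb (-1.51 ± 0.043) and Deptor (-1.35 ± 0.075) were lower. Of 18 measured integrated stress response targets, which act downstream of eIF2 alpha phosphorylation, 10 were higher and 6 lower. Members of that list did not move one way: the cystine and amino acid transporter subunit Slc3a2 (2.82 ± 0.071) and the serine synthesis enzyme Phgdh (2.33 ± 0.053) were higher, and asparagine synthetase Asns (-3.98 ± 0.109) and Chac1 (-3.07 ± 0.119) were lower.

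Of 9 mitochondrial translation factors, 7 were higher and 1 lower, led by Mtrf1l (1.24 ± 0.094) and the elongation factor Tufm (1.23 ± 0.056). Of 22 cytosolic tRNA synthetase genes, 7 were higher and 13 lower, with Dars (1.83 ± 0.051) and Gars (-1.30 ± 0.044) at the ends. Of 5 poly(A) binding genes, 2 were higher and 2 lower, Paip1 at 0.93 ± 0.059 and Paip2b at -0.46 ± 0.047. After fracture, none of these 6 lists had a called gene in Trap at 3, 5 or 7 weeks.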

How the data were processed

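RNA-seq of 24 Trap and 8 Input libraries was analysed. The authors deposited RSEM expected counts per gene, made from poly(A)-selected RNA; FastQC, Trim Galore, STAR and RSEM on GRCm38 are named in the submitters' processing notes, and tool versions, annotation and strandedness are not given in the sources used here. These estimated counts were rounded to whole numbers. RSEM divides reads shared by similar genes: 26 members held values that are not whole. Symbols and exon lengths came from GENCODE, which matched 55141 identifiers.

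The test was the quasi-likelihood F test of edgeR 4.0.16, run in R 4.3.3 after filterByExpr and TMM scaling with a robust glmQLFit, and a call is a Benjamini-Hochberg adjusted p under 0.05 over all genes tested. Trap against Input used 32 libraries with a term per sex and state (17101 genes), Trap comparisons 24 libraries with a mean per sex and state (15380 genes), Input comparisons 8 libraries with sex and state (16804 genes, 3 residual degrees of freedom). Levels are CPM on TMM library sizes; fold changes are given as log2 with the fit's standard error. Ratios used a prior count of 0.5. On simulated counts with known changes, the Trap 3 week comparison (15380 genes) recovered 84% of 2-fold and 66% of 1.5-fold changes, with 4 false calls. The simulated libraries were independent, without sex differences or replicate structure, and the changed genes were drawn at random from all genes tested. Recovery for the members in the real libraries may differ.

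Named members are a panel of paralogues and regulators, the called member with the largest fold each way in each role group, and in other comparisons every called member and those with the lowest p. The members, lists and this rule were chosen with earlier results of these data known. Alternatives were DESeq2 1.42.0 and its size factors, no filter on low counts, a replicate block, and leaving out libraries. No 2 libraries were identical: at least 19357 genes differed between any pair.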

Additional observations from a re-analysis of the deposited data

Results flagged for a closer look

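Of 44 groups of 6 Trap libraries of one state examined for a library far from the others, 7 had one. Chance gives about 1 in 20 for a single group. The groups reuse the same libraries for linked measures and are not independent, so the count is not weighed against that rate. The median of the 63 members, as log2 against the uninjured Trap mean, was 0.24 in male 7 weeks replicate 2, against -0.08 to -0.00071 in the other 7 weeks libraries. In the same library Eef1a1 had 1668 CPM, against 1217 to 1280 CPM in the others. At 3 weeks the members' median was 0.062 in male replicate 2, against -0.017 to 0.010 in the others.

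Eif4b had 115.5 CPM in male 3 weeks replicate 3, against 130.4 to 137.7 CPM in the other 3 weeks libraries. Eif4e2 had 33.1 CPM in uninjured male replicate 2, against 25.7 to 28.2 CPM in the other uninjured libraries. In female 5 weeks replicate 3, Eif3c had 157.5 CPM, against 188.3 to 205.4 CPM in the others, and Eif4g3 had 103.3 CPM, against 148.7 to 166.5 CPM.

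The Trap minus Input difference differed between males and females in 13 members by an interaction term (edgeR, adjusted p under 0.05 over 17101 genes), Eif5b (0.95 ± 0.237), Eif2ak2 (0.68 ± 0.145) and Eif3a (0.67 ± 0.131) with the largest male minus female differences. Input libraries of the sexes themselves differed in 46.2% of genes, and what part this has in the 13 was not tested.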

How the results depend on the processing

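For Trap against Input, the number of members called higher was 31 to 41 and lower 14 to 20 over 7 other settings, among them males only with 31 higher and 19 lower, and 39 to 40 higher and 14 to 16 lower without 1 Input library at a time. Of 525 values of single members under alternatives, 19 changed their call or sign, in 6 members: Eif2ak1, Eif2ak3, Eif4a1, Eif4ebp2, Eif4g3 and Eif5a. These values do not cover every member, so other members changed their call too. With male libraries alone, Eif2b1, Eif2b4, Eif2b5, Eif3g, Eif3h, Eif3k, Eef1akmt1 and Eefsec lost their call. Eef1e1 and Eif4h, not called over both sexes, were called lower in males. Eif4ebp2 changed sign, to -0.00049 with DESeq2's size factors and -0.00043 with its Wald test; these move the median over all genes by -0.13 and -0.14, and leaving out the filter moves it by -0.26. All 24 values of paralogue ratios under another prior count or with Trap replicate 1 paired with Input kept direction and call. All Input libraries bear the number 1, so anything the number marks is partly mixed with Trap against Input. With Trap replicate 1 alone set against Input, 14476 genes were called, against 14984 with all libraries.

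In Input, the count of members called lower at 3 weeks was 0 with DESeq2's size factors and 0 to 2 without 1 library at a time, and the count called higher at 5 weeks was 0 to 0 without any one of the libraries compared; fewer libraries enter these fits.

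Among Trap libraries no member was called in any of the 6 comparisons under any alternative run. Over all genes, calls at 3 weeks numbered 17, against 3 (without male uninjured replicate 2) to 40 (without female 3 weeks replicate 3), 135 with DESeq2's Wald test, 34 without the filter on low counts and 106 without the 2 libraries that stand apart; for 7 against 3 weeks they numbered 3, against 0 to 38 without 1 library (38 without male 7 weeks replicate 2), 57 with the Wald test, 9 without the filter and 51 without the 2 libraries; for males against females 30, against 18 to 47, 93 with the Wald test and 46 without the 2 libraries. In Input they numbered 181, 18 and 36 at 3, 5 and 7 weeks, against 34 to 200, 7 to 49 and 16 to 50 without 1 library. Neither the labels nor the column prefixes, which carry the same numbers, say what a replicate number marks, and the numbers were not taken as pairs: same-numbered libraries of a sex deviated together with correlations of -0.069 to 0.223, 7 of 36 over 0.1. Between libraries of a sex with different numbers, 1 of 72 correlations was over 0.1 (median -0.030, against 0.060 for the same number). As a hint from the data, 21 of 24 libraries correlated best, within their sex, with one of their own number. With the replicate number as a block, 44 genes were called at 3 weeks, and 77 with the number blocked within each sex, none of them members; for 7 against 3 weeks these counts were 11 and 50. Depth limits the members near 1 CPM, Eif4e3 most.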
